A study of Mus musculus with 12 samples.

Results

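Acyl-CoA thioesterases of the Acot family were measured as messenger RNA in the livers of 12 mice. The 8 members are Acot1, Acot2, Acot3, Acot4, Acot7, Acot9, Acot12 and Acot13. They are the rows of the deposited gene table, 8 of 49398 genes, whose Ensembl ID belongs to one of those symbols. The rows were matched by ID alone, but the 8 symbols were chosen with earlier results of these data known. All 12 animals were wild-type (WT) C57BL/6J mice, 9 months old when the diets began. They ate AIN-93G, a purified rodent diet, with no added oil (control, CTRL), with 1% oil by weight (1%-VLCPUFA, VLC1) or with 5% oil by weight (5%-VLCPUFA, VLC5) for 8 weeks, and their livers were taken after 5 hours without food. The oil was a concentrate of very-long-chain polyunsaturated fatty acids (VLCPUFA), which have longer chains than the common omega-3 fatty acids of fish oil. Each diet had 4 livers, from 2 females and 2 males, with 1 library per animal: on the control diet N979 and N980 (females) with N967 and N968 (males), on 1% oil N983 and N984 (females) with N971 and N972 (males), and on 5% oil N987 and N988 (females) with N975 and N976 (males). The comparisons ask how thioesterase mRNA differed with the dose of oil and with sex.

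Fatty acids enter metabolism as thioesters of coenzyme A (CoA), made by acyl-CoA synthetases. Acyl-CoA thioesterases hydrolyse these esters back to the free fatty acid and CoA, and so set, together with the synthetases, how much acyl-CoA and free CoA each compartment holds. Type I enzymes (Acot1 to Acot6 in the mouse) are close paralogs placed in different compartments: Acot1 in the cytosol, Acot2 in mitochondria, and Acot3 and Acot4 in peroxisomes. Type II enzymes (Acot7, Acot9, Acot12 and Acot13) share another fold, the hotdog fold. In mouse liver, several type I genes are known targets of PPARα, the nuclear receptor that fatty acids and fibrate drugs activate.

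Acot1, Acot2, Acot3 and Acot4 were higher at 5% oil than in controls, and Acot1 and Acot2 were higher at 1% oil as well. Acot7, Acot9, Acot12 and Acot13 did not pass the test in any diet comparison. In the order of the mouse chromosome, the 4 members that rose are neighbours: on chromosome 12 the Acot genes run Acot2, Acot1, Acot4, Acot3, Acot5, Acot6 in the RefSeq gene table of GRCm38.p6. The other 4 members lie on chromosomes 4 (Acot7), 13 (Acot12 and Acot13) and X (Acot9).

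The 250 bases before the RefSeq start of the 4 members that rose are shown. The choice was made because these neighbours were all higher at 5% oil while only Acot1 and Acot2 passed at 1%. Between 5% and 1% oil no member passed by edgeR. Acot12 is shown beside these 4 as the member outside the cluster whose window held a match. All are on the plus strand of GRCm38.p6, from RefSeq, at chr12:84009252-84009501 (Acot1), chr12:83987611-83987860 (Acot2), chr12:84051894-84052143 (Acot3), chr12:84038129-84038378 (Acot4) and chr13:91741271-91741520 (Acot12). Capitals mark the matches to the motifs named after the sequences, and a sequence with no capitals has no match.
Acot1: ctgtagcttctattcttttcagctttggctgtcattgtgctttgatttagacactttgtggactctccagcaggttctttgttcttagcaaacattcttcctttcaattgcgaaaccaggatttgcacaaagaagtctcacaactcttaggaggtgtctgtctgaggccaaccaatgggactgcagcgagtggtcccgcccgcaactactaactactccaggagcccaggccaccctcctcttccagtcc
Acot2: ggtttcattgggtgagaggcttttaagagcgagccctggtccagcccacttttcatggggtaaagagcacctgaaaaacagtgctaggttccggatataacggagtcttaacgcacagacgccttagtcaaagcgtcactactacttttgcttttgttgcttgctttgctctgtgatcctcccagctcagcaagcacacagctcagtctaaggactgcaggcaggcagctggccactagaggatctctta
Acot3: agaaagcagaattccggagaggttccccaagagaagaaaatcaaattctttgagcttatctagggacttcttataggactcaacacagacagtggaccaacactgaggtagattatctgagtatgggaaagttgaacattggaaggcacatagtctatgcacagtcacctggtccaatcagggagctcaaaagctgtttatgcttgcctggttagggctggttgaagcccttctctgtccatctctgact
Acot4: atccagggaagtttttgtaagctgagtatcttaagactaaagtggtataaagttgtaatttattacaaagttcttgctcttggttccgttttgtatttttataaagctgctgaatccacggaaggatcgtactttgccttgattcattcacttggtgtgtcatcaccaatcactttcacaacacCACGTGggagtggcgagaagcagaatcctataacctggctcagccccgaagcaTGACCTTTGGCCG
Acot12: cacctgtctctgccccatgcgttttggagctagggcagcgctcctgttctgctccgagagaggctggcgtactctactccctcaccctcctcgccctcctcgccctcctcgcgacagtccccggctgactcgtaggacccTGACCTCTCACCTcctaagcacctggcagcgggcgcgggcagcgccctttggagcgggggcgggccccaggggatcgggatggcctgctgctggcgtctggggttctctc

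The search covered 3 motifs on both strands. The hexamer AGGTCA, which PPARα and related receptors recognise, was in 14.0% of 32851 windows of that length in the RefSeq table. The direct repeat AGGTCANAGGTCA, read with up to 2 mismatches in its 12 fixed letters and overlapping the hexamer by construction, was in 3.24% of windows, and the E-box CACGTG, a site of clock factors, in 6.02%. The Acot4 window held the hexamer in reverse (TGACCT) 13 to 8 bases before the start, within a direct repeat (TGACCTTTGGCCG) 13 to 1 bases before it, and an E-box 66 to 61 bases before it. The Acot12 window held the hexamer in reverse 110 to 105 bases before the start, within a direct repeat (TGACCTCTCACCT) 110 to 98 bases before it. No match was in the windows of Acot1, Acot2 and Acot3, nor in those of Acot7 and Acot9, which are not shown. These matches describe letters in a short window, and no binding was measured.

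Libraries held 5291385 to 11132269 estimated reads in controls, 6275571 to 12317219 in 1% livers and 8723052 to 15674130 in 5% livers. Levels are given as CPM, the reads of a gene relative to the total of its library after TMM scaling, with the SD over livers, and differences as log2 fold changes ± SE from edgeR's quasi-likelihood test with sex as a term. Each p value was adjusted by Benjamini-Hochberg across all 13814 genes in the test, and 0.05 was the threshold. All 8 members passed the filter on low counts. Because the RNA came from whole livers, fewer cells of a type and less RNA per cell cannot be told apart. Hepatocyte markers (Alb, Apoa1, Ttr, Serpina1b and Fgb, 5 matched of 6 in the list) summed to 99792 to 175479 CPM in controls, 98048 to 117575 CPM in 1% livers and 87484 to 107070 CPM in 5% livers, with none at 0, so the markers of the labelled tissue were present throughout. The 8 Kupffer cell markers summed to 221 to 482 CPM in controls, 115 to 294 CPM in 1% livers and 114 to 299 CPM in 5% livers, with none at 0 and none past the threshold at either dose. The 7 sinusoidal endothelium markers, also with none at 0 or past the threshold, summed to 139 to 249 CPM in controls, 175 to 255 CPM at 1% and 109 to 181 CPM at 5%. Of the 5 adipocyte markers 1 was tested, Cidec, a lipid droplet protein. It was higher at 5% (log2 fold change 1.75 ± 0.38, edgeR adjusted p = 0.0309). It was also called lower in females than in males over the 3 diets (log2 fold change -3.95). The 5 markers summed to 0.600 to 18.3 CPM in controls, 1.23 to 59.8 CPM at 1% and 3.81 to 42.3 CPM at 5%, with Lep at 0 in all livers and Adipoq at 0 in all control and 5% livers. Of the 4 pancreas markers 1 was tested, Cela1, an elastase, which was lower at 5% (-1.18 ± 0.27, edgeR adjusted p = 0.0380). Over all genes tested 1.19% passed as higher at 5% and 1.27% as lower. The 4 markers summed to 16.5 to 36.7 CPM in controls, 10.5 to 27.0 CPM at 1% and 10.997 to 12.7 CPM at 5%, with Prss2 and Pnlip at 0 in all livers. No stellate cell, cholangiocyte or lymphocyte marker passed at either dose. Of the 8 Kupffer cell markers 0 had a positive log2 difference from control at either dose, with medians of -0.49 at 5% and -0.83 at 1%. Of the 7 stellate cell markers 0 were positive at either dose. Positive at 5% and at 1% were 0 and 1 of 5 hepatocyte markers and 1 and 5 of 7 endothelium markers. For cholangiocyte markers these counts were 1 and 2 of 5, and for lymphocyte markers 2 and 3 of 6 tested. The part of these markers in the Acot differences was not tested.

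Acot1, the cytosolic enzyme for long-chain acyl-CoA, had 24.5 and 16.6 CPM in control females and 18.5 and 12.03 CPM in control males. In 1% livers it had 112 and 113 CPM in females and 78.6 and 97.7 CPM in males. In 5% livers it had 102 and 101 CPM in females and 101 and 84.9 CPM in males. Every liver from either oil diet was above every control liver, and the livers of both oil diets covered much the same range. The means were 17.9 ± 5.16 CPM in controls, 100.5 ± 16.2 CPM at 1% and 97.1 ± 8.15 CPM at 5% (SD, n = 4 each). Acot1 was 5.51-fold higher at 5% than in controls (log2 fold change 2.46 ± 0.18, edgeR adjusted p = 3.62e-05) and 5.66-fold higher at 1% than in controls (2.50 ± 0.19, edgeR adjusted p = 3.02e-05). Between 5% and 1% oil the log2 difference was -0.04, with a 95% interval of -0.41 to 0.33 and an edgeR adjusted p of 0.927.

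**Figure D1:**
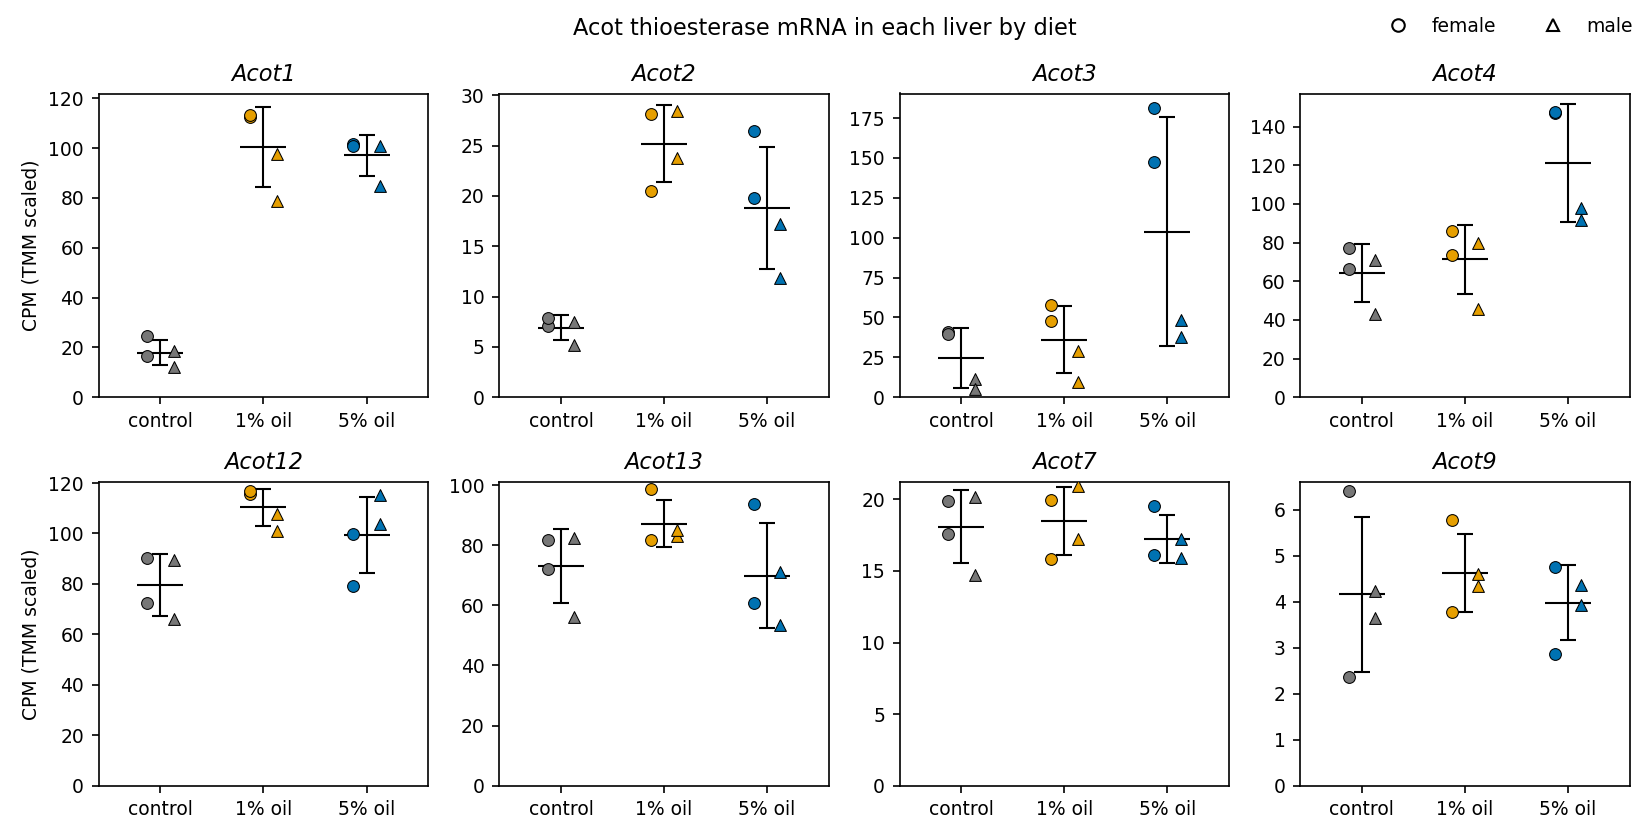
Level of each Acot member in each liver, in TMM-scaled CPM, by diet; circles are females, triangles are males, and the bars give the mean and SD of 4 livers. Acot1 and Acot2 separate both oil diets from the control diet, Acot4 separates the 5% diet from the others, and Acot3 is higher in females at each diet.

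Acot2, the mitochondrial paralog, had 7.07 and 7.90 CPM in control females and 5.17 and 7.52 CPM in control males. In 1% livers it had 20.5 and 28.1 CPM in females and 28.4 and 23.8 CPM in males. In 5% livers it had 19.8 and 26.4 CPM in females and 17.2 and 11.8 CPM in males. As with Acot1, no liver from an oil diet overlapped the controls. The 5% livers N976, N975 and N987 lay closer to the controls than any 1% liver did, with the male N976 the lowest. Acot2 was 2.66-fold higher at 5% than in controls (log2 fold change 1.41 ± 0.23, edgeR adjusted p = 0.00618) and 3.65-fold higher at 1% than in controls (1.87 ± 0.23, edgeR adjusted p = 0.00210). The log2 difference between 5% and 1% was -0.45 ± 0.21, with a 95% interval of -0.91 to 0.0019 and an edgeR adjusted p of 0.283.

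Acot3, a peroxisomal enzyme for long-chain acyl-CoA, was higher in both females than in both males at each diet, though sex was not tested within a diet. It had 41.0 and 39.8 CPM in control females and 11.6 and 5.05 CPM in control males. In 1% livers it had 47.6 and 57.5 CPM in females and 9.73 and 29.1 CPM in males. In 5% livers it had 182 and 147 CPM in females and 37.9 and 48.2 CPM in males. Within each sex both 5% livers were above both 1% livers and, except for the male at 37.9 CPM, above every control of either sex, while females were above males within each diet. Acot3 was 4.53-fold higher at 5% than in controls (log2 fold change 2.18 ± 0.33, edgeR adjusted p = 0.00572). At 1% it was 1.72-fold the control level, a log2 difference of 0.79 ± 0.33 that did not pass (edgeR adjusted p = 0.407). Between 5% and 1% the log2 difference of 1.39 ± 0.32 fell just outside the threshold (edgeR adjusted p = 0.0519); DESeq2 and a fit with no filter on low counts called it, as did edgeR without liver N972 (adjusted p = 0.00932) or without N975 (0.0397). Its 5% call depends on the sex term, since the adjusted p was 0.289 by edgeR with no sex term.

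Acot4, the peroxisomal enzyme that in the mouse acts on succinyl-CoA, had 77.1 and 66.5 CPM in control females and 70.8 and 43.0 CPM in control males. In 1% livers it had 73.6 and 86.2 CPM in females and 45.5 and 79.8 CPM in males. In 5% livers it had 147 and 148 CPM in females and 97.7 and 91.6 CPM in males. The 1% livers overlapped the control range, whereas every 5% liver was above every liver from the other diets. Acot4 was 1.85-fold higher at 5% than in controls (log2 fold change 0.89 ± 0.20, edgeR adjusted p = 0.0311). At 1% the log2 difference from control was 0.15 ± 0.20 (edgeR adjusted p = 0.819), and between 5% and 1% it was 0.74 ± 0.20 (edgeR adjusted p = 0.0818). Of the 4 calls at 5% this was the least stable: leaving out any one of the control livers N979, N980 or N968, the 1% liver N984 or the 5% livers N987, N988 or N976 took its edgeR adjusted p to between 0.0510 and 0.118. It was 0.122 with no sex term.

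Of the type II members, Acot12, the cytosolic enzyme that hydrolyses acetyl-CoA and is characteristic of liver, had 90.3 and 72.5 CPM in control females and 89.5 and 65.9 CPM in control males. In 1% livers it had 116 and 117 CPM in females and 101 and 108 CPM in males. In 5% livers it had 99.8 and 79.2 CPM in females and 115 and 104 CPM in males. The 1% livers did not overlap the controls, while 3 of the 4 livers at 5% were above all controls. The log2 differences from control, 0.32 ± 0.16 at 5% (edgeR adjusted p = 0.387) and 0.47 ± 0.16 at 1% (edgeR adjusted p = 0.277), did not pass the test over all genes.

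Acot13, a small thioesterase found in mitochondria and cytosol, ran from 55.96 to 82.3 CPM in controls, from 81.7 to 98.7 CPM at 1% and from 53.6 to 93.6 CPM at 5%. Acot7, a cytosolic enzyme best known from brain, ran from 14.7 to 20.2 CPM in controls, from 15.9 to 20.9 CPM at 1% and from 15.9 to 19.6 CPM at 5%. Acot9, a mitochondrial enzyme, ran from 2.36 to 6.40 CPM in controls, from 3.77 to 5.78 CPM at 1% and from 2.87 to 4.75 CPM at 5%. The ranges of these 3 genes overlapped between all diets. Against control, their log2 differences lay between -0.08 and -0.07 at 5% and between 0.03 and 0.25 at 1%, and the 95% intervals at 5% were -0.46 to 0.31 for Acot13, -0.42 to 0.27 for Acot7 and -0.72 to 0.56 for Acot9. The interval is widest for Acot9, the member with the fewest reads.

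**Figure D2:**
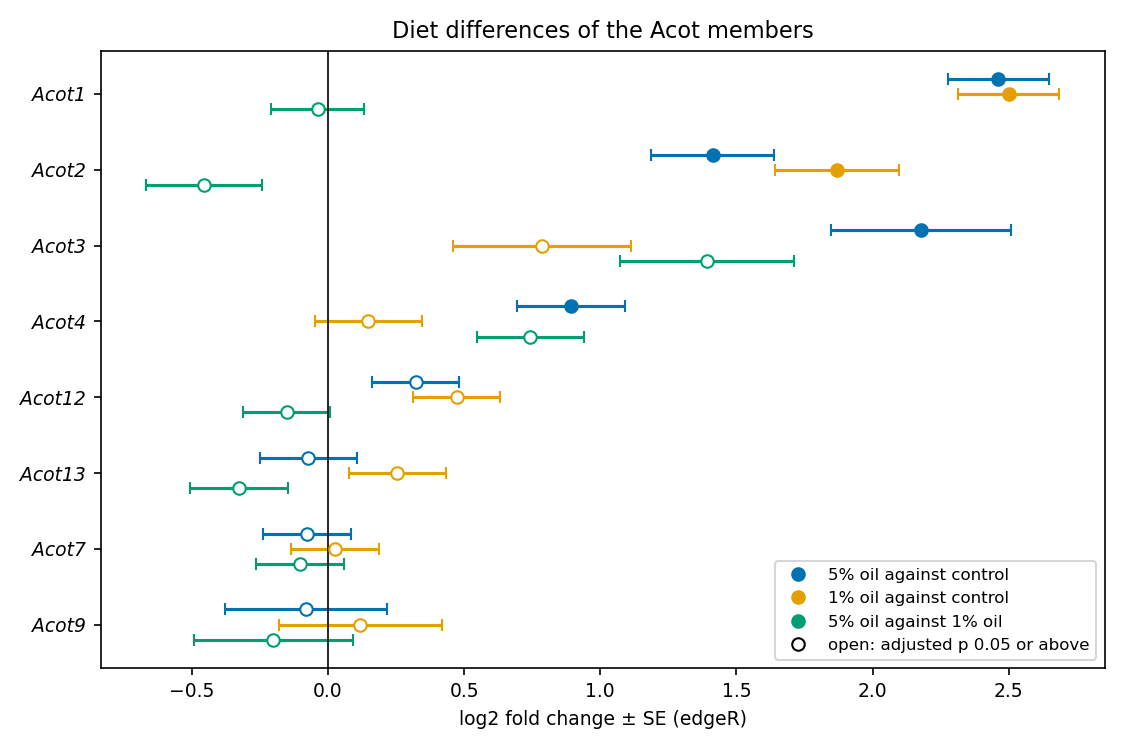
Log2 fold change of each Acot member with its SE, from edgeR, for 5% oil against control, 1% oil against control and 5% against 1% oil; filled points have an adjusted p under 0.05. Acot1 sits near 2.5 at both doses, Acot3 and Acot4 lie further right at 5% than at 1%, and the points of Acot7, Acot9, Acot12 and Acot13 are open.

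In all, 4 of 8 members were higher and 0 lower at 5% than in controls, where 2.46% of all genes tested passed in either direction, 1.19% higher and 1.27% lower. At 1%, 2 of 8 were higher and 0 lower, where 0.224% of all genes passed, 0.138% higher and 0.0869% lower. Between 5% and 1% none of the 8 passed by edgeR, with 2 at an unadjusted p under 0.05 (Acot3 and Acot4) and 2 called by DESeq2, where 1.33% of all genes passed, 0.861% higher and 0.471% lower. The median log2 difference of the members was 0.61 at 5% and 0.36 at 1%, beside 0.01 and 0.00 over all genes. Acot1, Acot2 and Acot4 did not overlap the controls at 5%, a pattern that 3.11% of all genes showed in the higher direction. At 1%, Acot1, Acot2 and Acot12 did not overlap, beside 1.83% of all genes, and between 5% and 1% Acot4 did not overlap, beside 4.1% of all genes. Both doses share the same 4 control livers, so their values are not independent. Without control liver N979, which had the fewest reads of the 12, 3 members passed at 5% and 2 at 1%.

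The authors' deposited table of their own test lists 261 genes, of which 3 are members; the comparison it reports is not named in it. In the authors' deposited table Acot1 has a log2 fold change of 2.66 (adjusted p = 0.000120), Acot2 one of 1.71 (0.00578) and Acot3 one of 1.67 (0.0253).

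Female livers had more Acot3 than male livers over the 3 diets. The level in females ran from 39.8 to 182 CPM with a median of 52.5 CPM, and that in males from 5.05 to 48.2 CPM with a median of 20.3 CPM. Within each diet both females were above both males, and over all diets the ranges overlapped, with the 5% males near the control females. With diet in the fit Acot3 was 3.67-fold higher in females than in males (log2 fold change 1.88 ± 0.27, edgeR adjusted p = 0.00111). It was the only one of 8 members past the threshold for sex, where 8.94% of all genes passed, 3.6% higher in females and 5.34% lower. Of the 8 members 0 had female and male ranges that did not overlap, beside 1.61% of all genes higher in females. Acot4 followed with a log2 difference of 0.44 ± 0.16 (edgeR adjusted p = 0.0934) and Acot1 with 0.30 ± 0.14 (edgeR adjusted p = 0.187). The other members lay between -0.02 and 0.27.

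The oil response was compared between the sexes as the difference itself. At 5%, Acot1 differed from control by 2.31 ± 0.27 in females and 2.61 ± 0.28 in males on the log2 scale. Acot3 differed by 2.03 ± 0.46 in females and 2.40 ± 0.49 in males, Acot4 by 1.04 ± 0.30 in females and 0.74 ± 0.30 in males, and Acot2 by 1.62 ± 0.30 in females and 1.17 ± 0.30 in males. At 1%, the value for Acot3 was 0.38 ± 0.45 in females and 1.24 ± 0.48 in males. The response of Acot3 to 1% oil, female minus male, was -0.86 on the log2 scale with a 95% interval of -2.31 to 0.58, so that with 2 animals per sex and diet a sizeable difference in either direction could not be seen. Of the 8 members 0 passed edgeR's test of a sex difference in the response to 5% oil and 0 to 1% oil, and 0 did so at an unadjusted p under 0.05 or by DESeq2 at either dose. Over all genes 0% passed at either dose.

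Levels can be set against each other only per transcript length, and for this the estimated reads of each annotated transcript were divided by its length and scaled to TPM, which gives every library the same total. In controls the order of the mean levels was Acot13 (133 ± 11.95 TPM), Acot12 (48.8 ± 8.79), Acot1 (28.5 ± 8.90), Acot7 (16.6 ± 1.43), Acot4 (16.0 ± 5.18), Acot3 (14.7 ± 10.99), Acot2 (4.16 ± 0.512) and Acot9 (3.26 ± 1.36). Acot7, Acot4 and Acot3 did not differ beyond their spread, nor did Acot2 and Acot9. At 1% the order began with Acot1 (167 ± 28.0 TPM) and Acot13 (165 ± 19.2 TPM), which did not differ beyond their spread, followed by Acot12 (74.3 ± 8.64 TPM). At 5% Acot1 had the highest mean, 192 ± 15.3 TPM, followed by Acot13 (148 ± 36.7), Acot3 (71.5 ± 50.2), Acot12 (69.1 ± 12.7) and Acot4 (39.7 ± 12.6). The ranges of Acot1 (172 to 208 TPM) and Acot13 (115 to 200 TPM) overlapped at 5%. So did those of Acot3 (24.8 to 128 TPM), Acot12 (52.8 to 83.9 TPM) and Acot4 (28.0 to 54.4 TPM). Acot2, which rose at both doses, ranked 7 of 8 at each diet by this measure, at 15.6 ± 2.76 TPM at 1% and 13.1 ± 4.34 TPM at 5%.

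The summed TPM of the 8 members was 265 ± 28.7 in controls, 482 ± 61.3 at 1% and 555 ± 94.5 at 5% (SD, n = 4 each). Controls ran from 228 to 295, 1% livers from 428 to 540 and 5% livers from 450 to 644, so both oil diets lay above the controls and overlapped each other. Acot1 made up 10.6% of that sum in controls, 34.5% at 1% and 35.0% at 5%, and Acot13 made up 50.7%, 34.3% and 26.6% in the same order of diets. The place and share of Acot1, and with them the summed TPM, depend on which of its transcripts the reads are given to. The sum and shares above rest on an Acot1 mean of 28.5 TPM in controls, 167 at 1% and 192 at 5%. With all reads of the gene divided by the length of its full-length transcript, Acot1 averaged 10.5 TPM in controls, 60.1 at 1% and 65.2 at 5%. Acot13 was then first at every diet. Other ranks shift as well when all reads of each gene are divided by the length of its transcript numbered 201. Acot2 was then 5 of 8 at 1% and 7 of 8 in controls and at 5%.

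**Figure D3:**
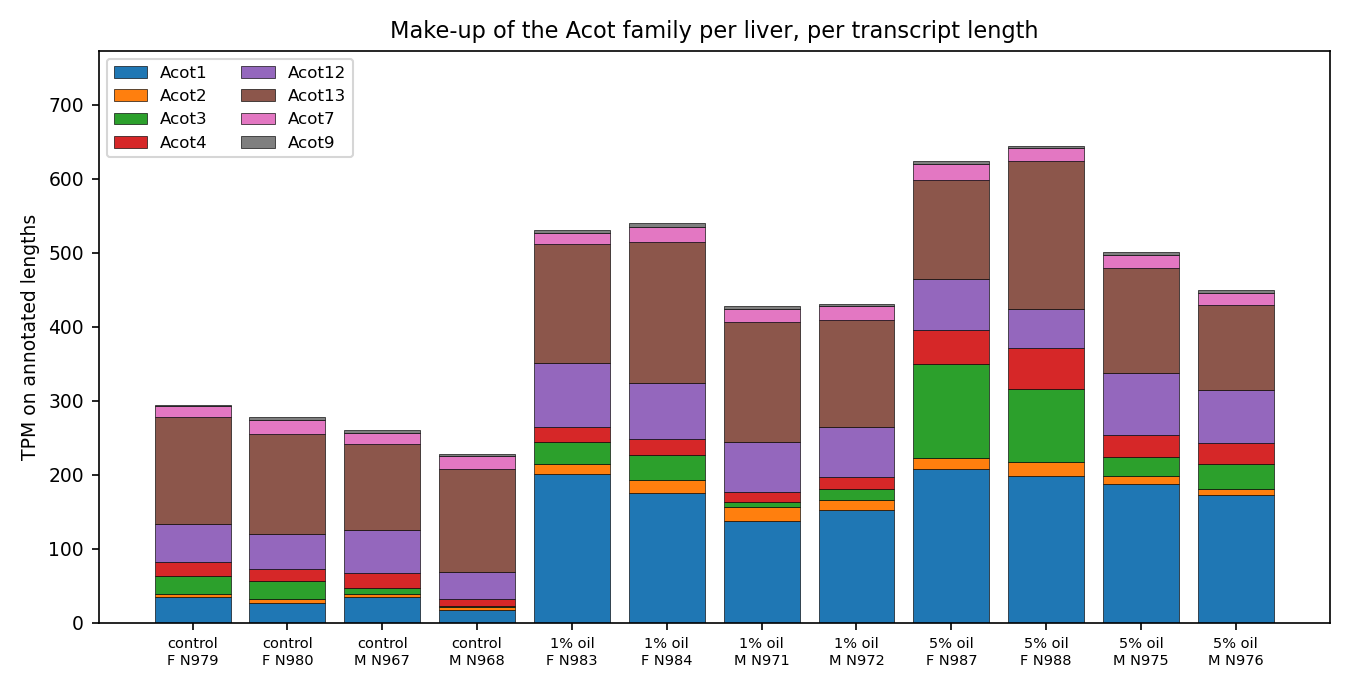
Level of each Acot member per liver in TPM on annotated transcript lengths, stacked to the sum over the 8 members; livers are grouped by diet, with females before males. The stacks reach 228 to 295 in controls, 428 to 540 at 1% and 450 to 644 at 5%, and the Acot1 segment is the one that differs most between the control and the oil diets.

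Reads of Acot1 were spread by the authors' estimation over 4 annotated transcripts. The full-length coding transcript Acot1-201 (2272 bases) took 4.79% to 18.8% of the gene's reads in controls, 13.3% to 21.5% at 1% and 6.92% to 17.9% at 5%. The short Acot1-202 (622 bases) took a median of 31.1% in controls, 44.4% at 1% and 39.6% at 5%. The processed transcript Acot1-204 (801 bases) took a median of 45.2% in controls, 30.8% at 1% and 48.5% at 5%. Most reads of the gene were thus assigned to its 2 short transcripts at every diet. In CPM, Acot1-201 averaged 1.65 ± 0.70 in controls, 17.1 ± 6.06 at 1% and 11.1 ± 5.58 at 5%, Acot1-202 averaged 6.34 ± 3.56, 46.5 ± 13.4 and 41.6 ± 8.99, and Acot1-204 averaged 7.55 ± 3.30, 30.5 ± 6.86 and 42.7 ± 10.4, in the same order of diets. For each of these 3 transcripts every liver from an oil diet was above every control liver, and the fourth transcript, a retained intron of 2613 bases, overlapped between diets.

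**Figure D4:**
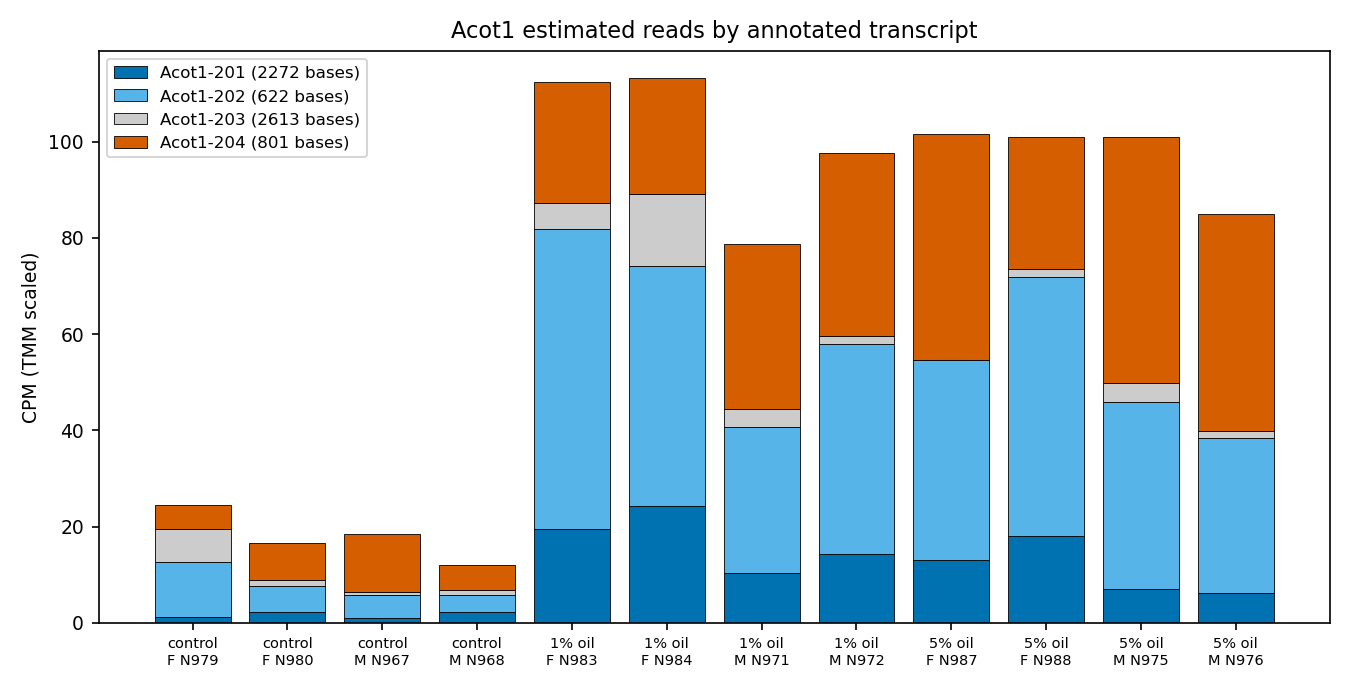
Estimated reads of Acot1 in each liver in TMM-scaled CPM, split by annotated transcript. Control livers reach 12.03 to 24.5 CPM and oil-fed livers 78.6 to 113 CPM, and in each oil-fed liver the tallest segment is Acot1-202 or Acot1-204.

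These paralogs share sequence, so the split of reads between them is an estimate. Of the 31-base words of Acot1-201, 39.2% also occur in transcripts of other genes, 29.2% in Acot2. Of Acot1-202 32.8% occur in Acot2, and of Acot1-204 61.2% do. Acot2-201 shares 37.8% of its words with other genes, 29.9% with Acot1. Acot3-202, which took a mean of 59.8% to 63.0% of the reads of Acot3 at each diet, shares 47.8%, with 1.92% of its words found in it alone, and Acot3-201 shares 25.6%. Acot4-201 shares 19.3% and Acot9-201 36.9%, all of the last with its near copy Acot10. Acot7 and Acot13 share none, and Acot12-201 shares 3.93%. Values of Acot1 against Acot2 are therefore uncertain in their split.

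Within each library the log2 ratio of Acot1 to Acot2 reads was 2.36, 1.93, 2.55 and 2.84 in the 5% livers N987, N988, N975 and N976, against 1.76, 1.08, 1.81 and 0.68 in the control livers N979, N980, N967 and N968. Every 5% liver had a higher ratio than every control liver. The means were 2.42 ± 0.38 at 5% and 1.33 ± 0.55 in controls, a difference of 1.09 (exact 2-sided permutation test, p = 0.0286, the smallest that 4 against 4 livers allow, and 0.0571 adjusted over both doses). At 1% the mean was 1.99 ± 0.41 against 1.33 ± 0.55 in controls, a difference of 0.66 (exact permutation p = 0.143, adjusted 0.143). The adjusted values do not pass the threshold at either dose.

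Correlations across the 12 livers are given as a description over libraries that share the diet groups. The highest between members were those of log2 CPM of Acot3 and Acot4 (Pearson r = 0.921), Acot1 and Acot2 (0.889) and Acot1 and Acot12 (0.795). Between the first 2 pairs r was 0.595 for Acot1 and Acot3, 0.564 for Acot1 and Acot4, 0.429 for Acot2 and Acot3 and 0.343 for Acot2 and Acot4. Acot7, Acot9 and Acot13 had no r above 0.508 with any member. Among 10558 expressed genes the 3 most like Acot1 were Cyp4a14 (r = 0.965), Cyp4a10 (0.947) and Idua (0.920), the first 2 of which are fatty acid ω-hydroxylases. Those most like Acot2 were Cyp4a31 (0.926), Krt23 (0.915) and Gstt2 (0.912). Those most like Acot3 were Vldlr (0.945), Acot4 (0.921) and Txnip (0.912), and those most like Acot4 were Acot3 (0.921), Iffo2 (0.910) and Bcl2l11 (0.902).

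Other acyl-CoA thioesterases did not pass the test at either dose. Of 9 in the list 6 were tested, and 0 rose or fell by edgeR at 5% or at 1%. Acot6, the sixth gene of the chromosome 12 cluster, had 4.62 and 3.98 CPM in 5% females and 3.38 and 2.78 CPM in 5% males, against 0.725 and 1.80 CPM in control females and 1.41 and 1.61 CPM in control males. Each 5% liver was above each control liver at this low level, and the log2 difference was 1.41 ± 0.49 (edgeR adjusted p = 0.169). Acot8, a peroxisomal thioesterase of broad range, averaged 12.1 ± 2.18 CPM at 1% and 7.92 ± 2.12 CPM in controls (n = 4 each), a log2 difference of 0.64 ± 0.20 (edgeR adjusted p = 0.234).

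Acyl-CoA synthetases catalyse the opposite step, and 3 of 17 tested (23 in the list) rose at 5% and 0 fell. Over all genes tested 1.19% passed as higher at 5% and 1.27% as lower. Slc27a1, a transporter with synthetase activity, differed by 1.76 ± 0.37 at 5% (edgeR adjusted p = 0.0271), Acsm5, a medium-chain synthetase, by 0.81 ± 0.18 (0.0283) and Acsl1, the main long-chain synthetase of liver, by 0.63 ± 0.15 (0.0465), all as log2 differences. At 1% Slc27a1 alone passed, with 2.58 ± 0.37 (edgeR adjusted p = 0.0123), where 0.138% of all genes passed as higher and 0.0869% as lower. Of 12 genes of CoA synthesis and breakdown, Vnn1, which breaks down pantetheine, rose at 5% with 1.22 ± 0.28 (edgeR adjusted p = 0.0417) and 0 passed at 1%. Of 12 tested genes of acyl-CoA binding and carnitine transfer 0 passed at either dose; the lowest edgeR adjusted p values at 1% were those of Slc25a20, the carnitine carrier of mitochondria (0.70 ± 0.15, adjusted p = 0.0774), and Crat, carnitine acetyltransferase (0.65 ± 0.14, adjusted p = 0.0831). Median log2 differences at 5% were 0.07 for the synthetases, 0.24 for the CoA genes and 0.27 for the carnitine genes, beside 0.61 for the Acot members and 0.01 over all genes. At 1% they were 0.01, 0.03 and 0.42 in the same order, beside 0.36 for the Acot members and 0.00 over all genes.

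Of 29 PPARα pathway genes tested 8 rose and 2 fell at 5%, where 2.46% of all genes passed, and 5 rose and 0 fell at 1%, where 0.224% of all genes passed. The list shares Vnn1 with the CoA genes and Cpt1a with the carnitine genes, so the call of Vnn1 at 5% counts in both of its lists. Most of the list did not pass at either dose, with median log2 differences of 0.49 at 5% and 0.52 at 1%. At 5% the smallest p values were those of Cyp4a10 (2.56 ± 0.26, edgeR adjusted p = 0.000273), the peroxisomal enzyme Ehhadh (2.34 ± 0.24, 0.000293), Cyp4a14 and Cyp4a31, and the 2 that fell were Pdk4 (-1.46), a kinase that holds back glucose oxidation, and Ppargc1a (-1.64), a coactivator. Ppara itself was at 28.7 ± 14.1 CPM in controls, 26.7 ± 7.13 CPM at 1% and 34.0 ± 7.38 CPM at 5% (SD, n = 4 each); its log2 difference was 0.25 ± 0.27 at 5% (edgeR adjusted p = 0.764) and -0.09 ± 0.28 at 1% (0.933). Hnf4a, a liver factor whose DNA site resembles that of PPARα, differed by 0.14 ± 0.18 at 5% and 0.31 ± 0.18 at 1% and did not pass.

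Of 18 clock genes tested 7 rose and 4 fell at 5%, where 2.46% of all genes passed, and 1 rose and 0 fell at 1%, where 0.224% of all genes passed; the labels give no hour of collection. Dbp, a clock output factor chosen after its values were seen, had 28.9 and 39.98 CPM in 5% females and 12.7 and 24.1 CPM in 5% males, against 0.36 and 1.10 CPM in control females and 0.16 and 0.64 CPM in control males. In the 1% livers Dbp was 1.62 CPM in female N983 and 14.7 to 20.0 CPM in the other 3. In N983 Acot1 was 112 CPM and Acot4 73.6 CPM. Dbp does not stand for the other clock genes of that liver, some of which lay outside the control range and some within it. Outside it were Nr1d2 (45.1 CPM, controls 17.6 to 30.6) and Nfil3 (28.4 CPM, controls 51.0 to 87.4). Within it were Per1 (20.4 CPM, controls 10.4 to 21.9) and Nr1d1 (39.4 CPM, controls 16.0 to 77.2). The part of the clock genes in the Acot differences was not tested.

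**Figure D5:**
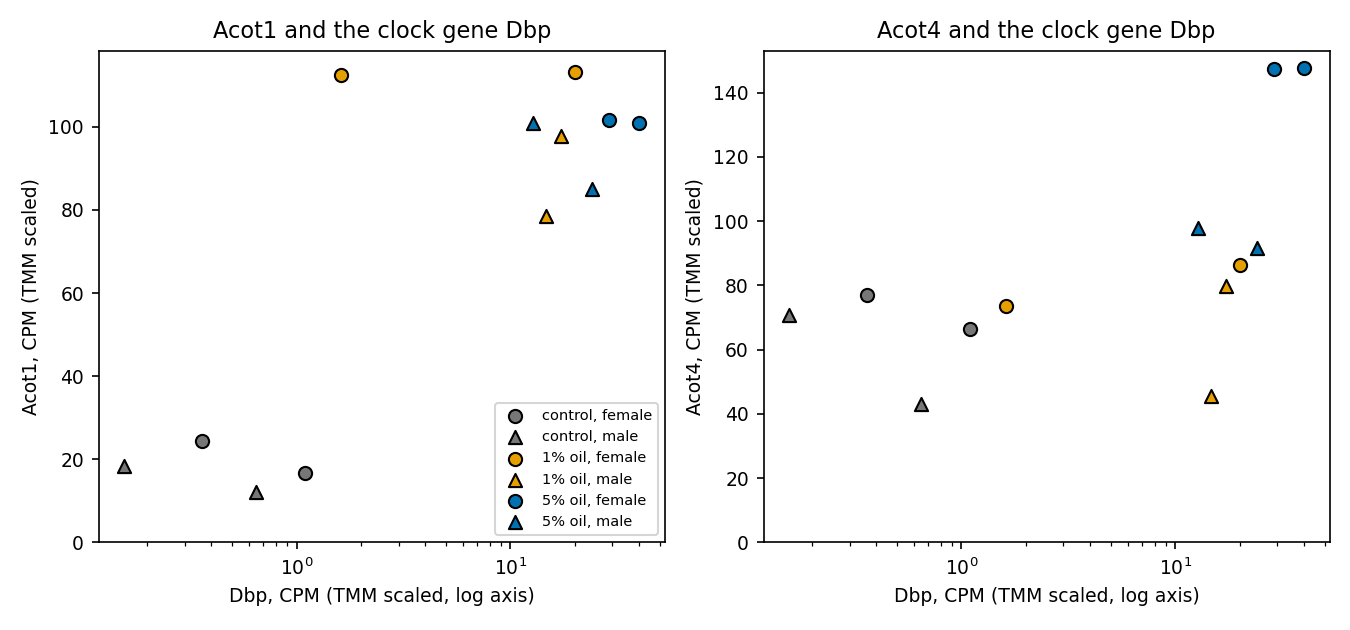
Acot1 and Acot4 against the clock gene Dbp in each of the 12 livers, in TMM-scaled CPM, with Dbp on a log axis. Controls have Dbp at 0.16 to 1.10 CPM and 5% livers at 12.7 to 39.98 CPM, and for Acot4 the 4 livers at 5% stand above the rest.

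The share of reads on long noncoding genes was 0.646% to 1.63% in controls, 0.685% to 1.91% in 1% livers and 0.676% to 1.24% in 5% livers, so its ranges overlapped between diets. With that share as a term in the fit the same 4 members were past the threshold at 5% and the same 2 at 1%.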

How the data were processed

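RNA from 12 livers was sequenced from stranded poly(A) libraries of RNA with an integrity number above 7, per the labels' protocols. The labels name 4 libraries per diet and the series text speaks of 6 per group; the 12 were analysed. The authors deposited estimated counts for 49398 genes and 141450 transcripts, as well as CPM for 11339 genes, which list all 8 members and were used only to see which genes they hold. The authors' deposited table of log2 fold changes with p-values and adjusted p-values does not name its comparison, and 12 per-library columns in it were not used. The submitters' processing notes name kallisto, edgeR, limma and build GRCm39, with no versions; whether counting used the strand is not given in the sources used here. Gene symbols came from a reference table, in which 48845 IDs matched and 553 did not, and 138096 transcripts matched GENCODE M21 (GRCm38), whose lengths gave the TPM.

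For the tests, edgeR 4.0.16 (R 4.3.3) was run on the counts after rounding to integers. Low genes were removed by filterByExpr, with the 6 diet and sex combinations as groups. TMM factors and a robust quasi-likelihood fit of diet and sex over all 12 libraries followed, and the code was tested on simulated data. A fit of the 6 groups gave the values within each sex and the sex differences in response. SE was taken as the size of the log2 difference divided by the root of the F statistic. The Acot1 to Acot2 ratio had 0.5 added to each count. The alternatives were RLE factors, no filter, a filter of 50 reads in 4 libraries, DESeq2 1.42.0, transcript sums, no sex term, the noncoding share as a term, and each library left out. Intervals of log2 fold changes are 95% intervals of the fit. Genes named beside the members were up to 4 per list and comparison by smallest p among those past the threshold, or up to 2 by smallest p where none passed, with Ppara and Hnf4a added; Dbp, and Pdk4 and Ppargc1a as the genes that fell, were added after their values were seen. The 3 most like genes needed a mean log2 CPM of at least 1 (prior count 2). The members and lists were chosen with earlier results of these data known. Promoter windows came from RefSeq for 7 of the 8 members.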

Additional observations from a re-analysis of the deposited data

Results flagged for a closer look

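Within the 5% livers, the Acot1 level of male N976 stood apart from the other 3: it was 84.9 CPM, and the others lay between 100.9 and 101.7 CPM. The gap to the nearest liver was 0.956 of the whole range, above Dixon's critical value for 4 samples. The other 3 are unusually close together, and N976 is itself far above the control livers, of which the highest had 24.5 CPM. N976 also had the lowest Acot2 level of the 5% livers, 11.8 CPM. Of 27 groups of 4 livers examined this was the 1 with such a gap, and chance alone would pick out about 1 in 20 such groups. Across the fits that each left out 1 liver, the fit without N976 among them, the log2 fold change of Acot1 at 5% against control ran from 2.34 to 2.598.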

How the results depend on the processing

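Of 600 values of single members under the alternatives, 584 kept their side of the threshold, 9 lost a call, 7 gained one and 0 changed sign while called. Some values that were not called did change sign. Acot4 at 1% against control, 0.15 as reported, ran from -0.06 to 0.32 with single livers left out. The calls of Acot1 and Acot2 at both doses and of Acot3 between the sexes held under every alternative run. The count of 4 members at 5% against control was 2 with no sex term and ran from 3 to 4 when single livers were left out, with Acot4 the member lost. The count at 1% was 2 to 3, with Acot3 called (edgeR adjusted p = 0.0170) with no filter. Between 5% and 1% the count of 0 was 2 with no filter and 2 with DESeq2, and 0 to 1 with single livers left out. For sex it was 1 throughout, and for the sex differences in response 0. The Acot1 to Acot2 ratio at 5% kept its direction, with a log2 difference of 0.871 to 1.25 and an exact permutation p of 0.0571, the smallest that 3 against 4 livers allow; at 1% the difference was 0.442 to 0.835.

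Counts over all genes moved more. At 5% against control 340 genes passed, against 1011 with no filter, 749 with DESeq2, 107 with no sex term, 574 with the noncoding share and 138 to 479 without single livers. At 1%, 31 passed, against 649 with no filter, 50 with the stricter filter, 277 with DESeq2, 10 with no sex term and 13 to 184 without single livers. Between 5% and 1%, 184 passed, against 1276 with no filter, 707 with DESeq2, 8 with no sex term, 37 with the noncoding share and 13 to 597 without single livers. For sex 1235 passed, against 2375 with no filter, 2079 with DESeq2, 327 with the noncoding share and 594 to 2356 without single livers. For the sex difference in response 0 genes passed by edgeR at either dose (645 at an unadjusted p under 0.05 at 5% and 517 at 1%), against 229 at 5% and 109 at 1% with no filter, 43 and 6 with DESeq2, and 0 to 2 at each dose without single livers. The cause of these moves was not tested. Adjusted p values of the members depend on these counts, since the adjustment runs over all genes.

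No paired analysis was possible because the replicate names are animal numbers that no 2 diets share. Precision is limited by 4 livers per diet and, for Acot9 and Acot6, by few reads.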

Other observations

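Some genes that handle acyl-CoA beside the Acot members differed between the sexes, though most genes of each list did not pass; over all genes tested 5.34% were lower in females and 3.6% higher. Of 6 other thioesterases 1 passed: over the 3 diets Baat, which joins bile acids to amino acids and has thioesterase activity, was lower in females than in males (log2 fold change -0.53 ± 0.11, edgeR adjusted p = 0.0117). Acsl1, which rose with 5% oil, was lower in females (-0.70 ± 0.13, edgeR adjusted p = 0.00434), and it was the 1 synthetase of 17 tested that passed for sex. Of 12 genes of CoA synthesis and breakdown 2 were lower in females and 0 higher: Nudt7, a peroxisomal hydrolase of CoA (-1.57 ± 0.29, edgeR adjusted p = 0.00766), and Coasy, the last enzyme of CoA synthesis (-0.54 ± 0.16, edgeR adjusted p = 0.0461). Of 12 genes of acyl-CoA binding and carnitine transfer 3 were lower in females and 0 higher, among them the acyl-CoA binding protein Acbd5 (-1.03 ± 0.18, edgeR adjusted p = 0.00374) and the peroxisomal carnitine octanoyltransferase Crot (-0.68 ± 0.16, edgeR adjusted p = 0.0182). Acot3 was higher in females.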
